A study of Mus musculus with 16 samples.

Results

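The miR-148/miR-152 family of the mouse comprises the mature microRNAs mmu-miR-148a-3p, mmu-miR-148b-3p and mmu-miR-152-3p (below without the mouse prefix), which were picked by name as 3 of the 1978 mature names counted in every library. The series holds 16 small RNA libraries of mouse blastocysts that had been divided with a laser, made to ask how miRNA levels change when the embryo pauses. The polar piece contains the inner cell mass, and the mural piece is trophectoderm from the other side of the cavity. Both pieces were sampled in 3 conditions: WT at embryonic day 4.5 (n = 2 libraries per piece), diapaused, meaning paused in the uterus, at EDG 7.5 (n = 3), and paused by mTOR inhibition, labelled mTORi (n = 3). In diapause the embryo halts naturally and reversibly ahead of implantation, while mTOR links nutrient supply to growth and its inhibition halts the blastocyst in culture. Neither strain nor genotype beyond WT is given by the labels, and no inhibitor name, dose or embryonic day is given for mTORi. Age and treatment therefore cannot be told apart in any comparison with WT. The labels do not say whether libraries of one group came from separate embryos, nor how many embryos each holds, so p-values measure only the spread between these samples. The titles of the 3 mural mTORi libraries carry the word diapaused as well as mTORi and name no part; their tissue and treatment labels place them in the mural mTORi group.

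MicroRNAs guide the silencing complex to messenger RNAs through the seed, bases 2 to 8 of the mature strand, so miRNAs with the same seed can bind the same sites. Members of the miR-148/miR-152 family are known for binding the transcript of Dnmt1, the methyltransferase that copies DNA methylation onto new strands after replication. Each hairpin precursor gives a 5p and a 3p strand, and in this family the 3p strand is the one usually loaded.

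The mature 3p strands are shown because they carry both the shared seed and the few bases that tell the members apart. They are RefSeq sequences on GRCm38.p6, written 5′ to 3′ with the seed in capitals, at chr6:51269829-51269850 (minus strand) for miR-148a-3p, chr15:103285185-103285206 (plus strand) for miR-148b-3p and chr11:96850439-96850459 (plus strand) for miR-152-3p.
miR-148a-3p: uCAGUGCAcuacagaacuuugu
miR-148b-3p: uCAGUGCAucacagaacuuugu
miR-152-3p: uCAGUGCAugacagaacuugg
Counting from 1 at the 5′ end of the first-named member, miR-148a-3p and miR-148b-3p differed by the 2 substitutions C9U and U10C. Over the 21 bases of miR-152-3p, miR-148a-3p differed from it by C9U, U10G and U20G and miR-148b-3p by C10G and U20G, and both have 1 more base at the 3′ end, for a length of 22. The seed CAGUGCA was held by these 3 names alone among the 1679 names of the files that had a mature sequence in the RefSeq table. With so few differing bases, the split of reads between members depends on how reads with mismatches were assigned, which is not given in the sources used here.

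The precursors are shown with the 3p strand in capitals, since they differ far more than the mature strands do and come from 3 separate loci.
mir-148a: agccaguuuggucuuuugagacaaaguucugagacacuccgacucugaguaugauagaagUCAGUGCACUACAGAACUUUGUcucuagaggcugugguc
mir-148b: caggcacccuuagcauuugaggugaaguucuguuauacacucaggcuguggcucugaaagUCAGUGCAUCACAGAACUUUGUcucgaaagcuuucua
mir-152: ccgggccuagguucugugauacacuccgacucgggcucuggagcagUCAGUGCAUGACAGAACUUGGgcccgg
The aligned hairpins were 68.9% identical between mir-148a and mir-148b, 58.4% between mir-148a and mir-152 and 59.6% between mir-148b and mir-152. Mir148a lies between genes on chromosome 6 (51269812 to 51269910, minus strand), 162760 bp from the nearest coding gene, Nfe2l3. Mir148b lies in an intron of Copz1 on chromosome 15 (103285125 to 103285221, plus strand), and Mir152 in an intron of Copz2 on chromosome 11 (96850393 to 96850465, plus strand). Both miRNAs share the strand of their host genes, which encode zeta subunits of the coatomer, the coat of vesicles that travel back from the Golgi.

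The libraries were shallow, with 1744 to 20051 miRNA counts each and 122251 in all, and 102 miRNAs passed the filter on low counts, all 3 family members among them. Since miR-152-3p passed through groups in which it was high, no count over members that passed is read as support. The polar pieces held 31 counts of an inner cell mass list (miR-302 and miR-367 names, with miR-302c-3p at 0) and the mural pieces held 0. A trophectoderm list of 4 miRNAs, which was chosen from earlier results of these data, made up 2.55% to 7.16% of mural and 0.344% to 1.92% of polar counts. Polar WT replicate 2 stood apart by an erythroid list at 2.41% of its counts (0.115% in replicate 1, at most 0.275% elsewhere). Polar mTORi replicate 3 stood apart by a stratified epithelium list (miR-203-3p and miR-205-5p) at 25.8%, against at most 1.28% outside its group. Lists of leukocyte and of endothelial and stromal miRNAs stayed at or below 0.366% and 0.321% in every library. Liver and pancreas miRNAs, from adult tissues rich in miR-148a, had 28 counts summed over the 16 libraries, with miR-216a-5p and miR-217-5p at 0. All 14 counts of miR-375-3p were in mural diapaused pieces, where this list ranged from 0% to 0.0698% of a library's counts. What these other cells contributed to the family's counts was not tested, and in pieces of tissue fewer cells of a type and less RNA per cell cannot be told apart.

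The family as a whole gave 2710 counts, of which miR-148a-3p held 2372 (87.5%), miR-148b-3p 226 (8.34%) and miR-152-3p 112 (4.13%). The first 2 were detected in 16 of 16 libraries and miR-152-3p in 12. Its share of all miRNA counts in polar pieces was 1.62% ± 0.226 (SD, n = 2) for WT, 3.5% ± 0.527 (n = 3) for diapause and 3.49% ± 0.605 (n = 3) for mTORi. The mural shares were 0.819% ± 0.0939 (SD, n = 2) for WT, 1.65% ± 0.159 (n = 3) for diapause and 2.28% ± 0.223 (n = 3) for mTORi. The WT share was thus the lowest of its part in both parts. Leaving the abundant miR-290/miR-295 cluster out of the total, the family's mean shares were 3.43%, 6.08% and 5.74% for polar WT, diapause and mTORi and 1.66%, 3.28% and 3.88% for the mural groups, with WT lowest again. Shares are given as a description, and no test of them was made.

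miR-148a-3p, the main member, was higher in both kinds of paused blastocyst than in WT and higher in polar than in mural pieces. Levels are given as CPM, that is per 1000000 of the tested counts, with TMM scaling. In polar pieces the level was 15570 and 13589 CPM in WT replicates 1 and 2, from 30 and 66 counts. It was 26910, 25919 and 29194 CPM in the diapaused libraries (404, 256 and 309 counts) and 37913, 31720 and 29211 CPM in the mTORi libraries (106, 75 and 82 counts). Every paused polar library thus lay above both polar WT libraries. Mural WT pieces stood at 5608 and 5740 CPM (36 and 48 counts), the lowest levels of the series. Mural diapaused pieces were at 19585, 19790 and 16257 CPM (195, 323 and 194 counts) and mural mTORi pieces at 22436, 19216 and 27619 CPM (94, 70 and 84 counts). By CPM each of these 6 libraries was also above both polar WT libraries, but this depends on the scaling: by share of all counts the mural diapaused libraries (1.55%, 1.61% and 1.31%) overlapped polar WT (1.72% and 1.34%). By rank among all names of a library, miR-148a-3p was 30th and 31st in mural WT and between 7th and 15th in the other 14 libraries.

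**Figure D1:**
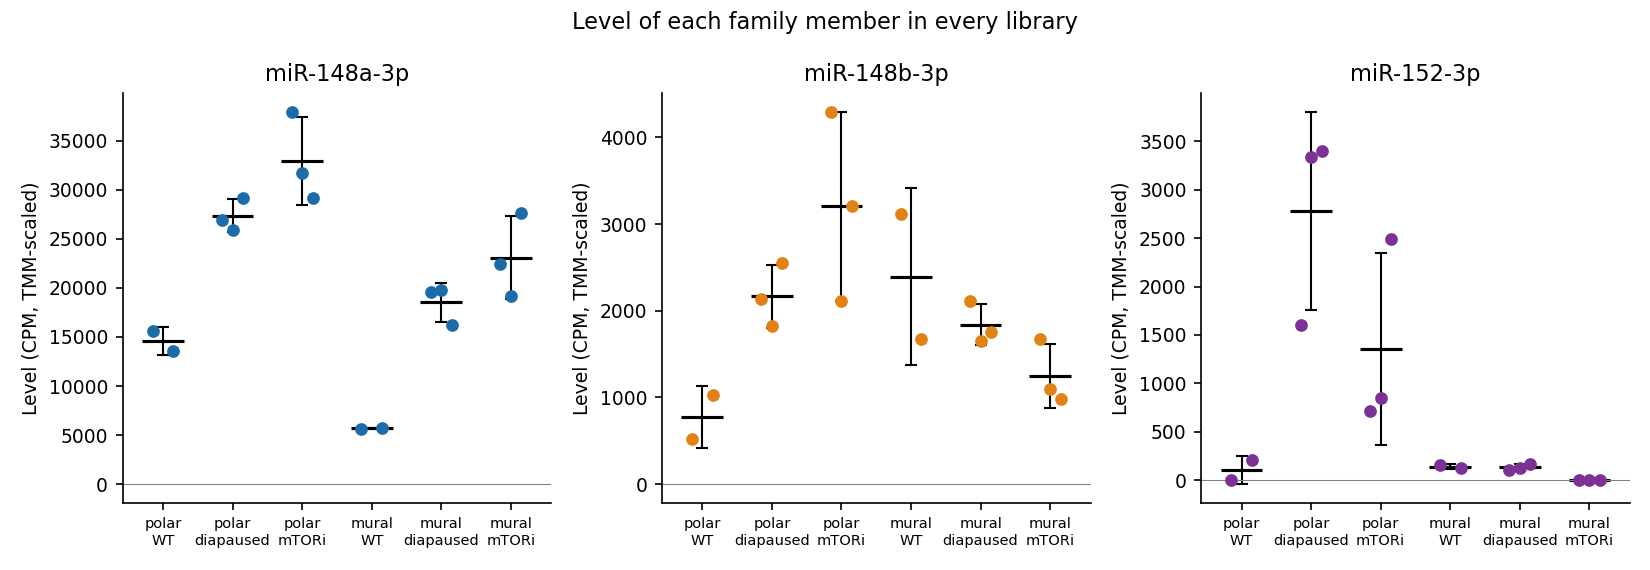
Level of each family member in every library, in CPM of tested counts after TMM scaling (vertical axes, one panel per member), for the 6 groups; points are libraries, and bars show the group mean ± SD. For miR-148a-3p both mural WT libraries lie lowest, at 5608 and 5740 CPM. miR-152-3p is at 715 to 3401 CPM in polar diapaused and polar mTORi libraries against at most 206 CPM in the others. The 0 of polar WT replicate 1 allows up to 0.172% of its counts, above the shares of polar mTORi replicates 1 and 2 (0.0653% and 0.0916%).

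In order of the mean, the groups for miR-148a-3p ran from polar mTORi (32948 ± 4479 CPM, SD, n = 3) and polar diapaused (27341 ± 1679, n = 3) through mural mTORi (23090 ± 4240, n = 3) and mural diapaused (18544 ± 1983, n = 3) to polar WT (14580 ± 1401, n = 2) and mural WT (5674 ± 93.5, n = 2). Polar diapaused overlapped mural mTORi, and mural mTORi overlapped mural diapaused. The gap between polar mTORi and polar diapaused libraries was that between 29211 and 29194 CPM. By CPM polar WT overlapped neither neighbour, but by share of all counts it overlapped mural diapaused (mean 1.53% against 1.49%).

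The edgeR quasi-likelihood test over all tested miRNAs called miR-148a-3p higher in all 4 comparisons of a paused group with WT. In mural pieces the log2 difference was 1.71 (SE 0.27, edgeR adjusted p = 0.000793) for diapause and 2.02 (SE 0.28, edgeR adjusted p = 0.00012) for mTORi. Of the 102 tested miRNAs, 9.8% were called in the first of these comparisons and 11.8% in the second, 7.84% and 5.88% as higher, and miR-148a-3p had the smallest p in both. In polar pieces the log2 difference was 0.91 (SE 0.26, edgeR adjusted p = 0.0379) for diapause and 1.18 (SE 0.27, edgeR adjusted p = 0.0131) for mTORi, where 7.84% and 22.5% of tested miRNAs were called. The mural mTORi call held in 16 of 16 alternative settings, and the mural diapaused call in 15 of 16, with an edgeR adjusted p of 0.105 without mural WT replicate 2 and with the filter recomputed. The polar diapaused call was lost in 13 of 16, including every fit that left out 1 library of the pair of groups (log2 0.65 to 0.98, edgeR adjusted p 0.0502 to 0.204). Without polar WT replicate 2, the library with the erythroid counts, the polar log2 differences were 0.65 for diapause (edgeR adjusted p = 0.204) and 0.92 for mTORi (edgeR adjusted p = 0.0621). Averaged over both parts, miR-148a-3p was 2.48-fold higher in diapause (log2 1.31, SE 0.19, edgeR adjusted p = 0.000238) and 3.03-fold higher in mTORi (log2 1.60, SE 0.19, edgeR adjusted p = 1.04e-05), against 18.6% and 32.4% of tested miRNAs called, 14.7% and 15.7% as higher. All 6 libraries of each paused treatment lay above the WT libraries of their part.

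Both contrasts with WT use the same WT libraries, so their likeness is no separate evidence, and the paused groups were also compared directly. For miR-148a-3p the difference of diapaused from mTORi was -0.27 in polar (SE 0.22, edgeR adjusted p = 0.447) and -0.31 in mural pieces (SE 0.23, edgeR adjusted p = 0.368). For comparison, 15.7% of tested miRNAs were called in polar and 0.98% in mural pieces. A difference between the paused states was thus not detected for miR-148a-3p, which does not show that they were equal.

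Between the parts, miR-148a-3p was higher in polar pieces when averaged over treatments (1.75-fold, log2 0.81, SE 0.14, edgeR adjusted p = 0.000621), where 27.5% of tested miRNAs were called (12.7% as higher). The polar libraries were above the mural ones of the same treatment in all 3 treatments by CPM. By the share of all counts the mTORi libraries overlapped. Within WT the log2 difference was 1.35 (SE 0.29, edgeR adjusted p = 0.00632), in diapause 0.56 (SE 0.22, edgeR adjusted p = 0.0928) and in mTORi 0.51 (SE 0.23, edgeR adjusted p = 0.225). The shares of tested miRNAs called were 10.8%, 18.6% and 4.9%, or 3.92%, 4.9% and 2.94% as higher in polar pieces. The WT call was lost in 5 of 15 alternatives, among them the fits without mural WT replicate 1 (edgeR adjusted p = 0.0711) and, with the filter recomputed, without mural WT replicate 2 (0.113). Only the WT difference was called, and the test of the change itself did not pass: the effect in polar minus that in mural pieces was -0.79 for diapause (SE 0.37, edgeR adjusted p = 0.377) and -0.84 for mTORi (SE 0.37, edgeR adjusted p = 0.322). edgeR called 0 of 102 miRNAs in either of these tests between parts, with 12 and 14 at an unadjusted p under 0.05, and DESeq2 called 0 and 1. The polar excess in diapause was called in 4 of 19 alternatives: with RLE size factors (0.70, edgeR adjusted p = 0.0247), with DESeq2 (0.70, adjusted p = 0.00027), with only the groups compared (0.61, edgeR adjusted p = 0.0358) and by library size alone (1.03, edgeR adjusted p = 0.00838). The median of all tested miRNAs moved in the same direction by 0.15, 0.15, 0.05 and 0.48 in these settings. In mTORi it was called with DESeq2 (0.58, adjusted p = 0.03).

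**Figure D2:**
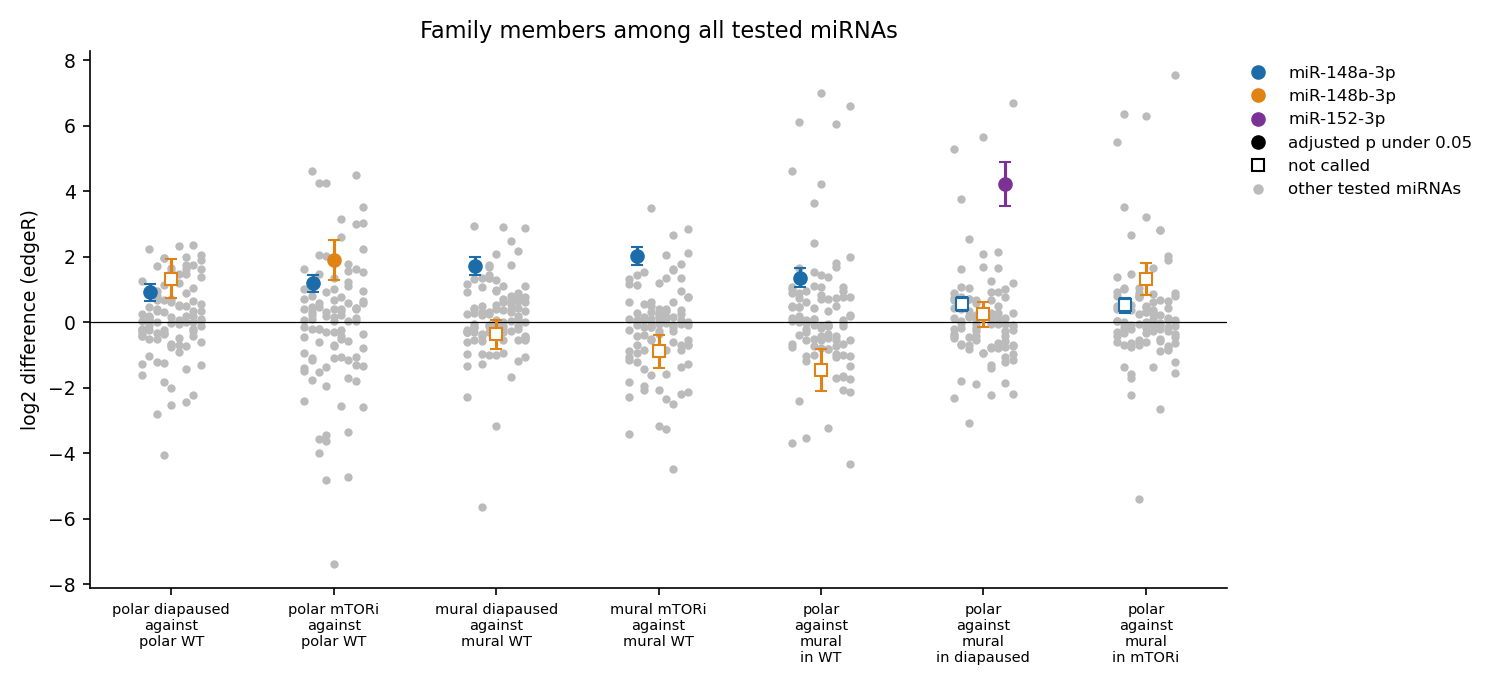
edgeR log2 difference of each family member (coloured, bars ± SE) among the other tested miRNAs (grey points) in 7 comparisons on the horizontal axis; filled circles passed an adjusted p of 0.05 and open squares did not. miR-148a-3p lies above 0 in all 7, miR-148b-3p lies above 0 in polar and below 0 in mural comparisons with WT, and miR-152-3p is drawn where both groups have more than 3 counts.

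miR-148b-3p, which differs from miR-148a-3p by 2 bases, was far less abundant and its groups stood in another order. In polar pieces it stood at 519 and 1029 CPM in WT (1 and 5 counts), 2132, 1822 and 2551 CPM in diapause (32, 18 and 27 counts) and 4292, 2115 and 3206 CPM in mTORi (12, 5 and 9 counts). Every paused polar library was above both polar WT libraries. In mural pieces the order was the opposite, with 3116 and 1674 CPM in WT (20 and 14 counts), 2109, 1654 and 1760 CPM in diapause (21, 27 and 21 counts) and 1671, 1098 and 986 CPM in mTORi (7, 4 and 3 counts). The mural mTORi libraries lay below mural WT by the narrow gap from 1671 to 1674 CPM, and mural diapaused libraries overlapped mural WT.

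Only the polar mTORi difference of miR-148b-3p was called, at 3.73-fold (log2 1.90, SE 0.61, edgeR adjusted p = 0.0305), from 26 counts against 6, higher in 3 of 3 libraries. That call was lost in 10 of 16 alternative settings, among them the fits without any 1 of the 5 libraries (log2 1.58 to 2.43, edgeR adjusted p 0.0534 to 0.118). Without polar mTORi replicate 3 the log2 difference was 1.77 (edgeR adjusted p = 0.0626). The log2 difference was 1.33 in polar diapause (SE 0.59, edgeR adjusted p = 0.159), -0.37 in mural diapause (SE 0.45, edgeR adjusted p = 0.736) and -0.89 in mural mTORi (SE 0.51, edgeR adjusted p = 0.273). The mural diapause value changed sign without mural WT replicate 1, to 0.13. The mTORi effect in polar minus that in mural pieces was 2.79 (SE 0.80, edgeR adjusted p = 0.137), and the diapause effect differed by 1.70 (SE 0.74, edgeR adjusted p = 0.352). Neither passed the adjustment over 102 miRNAs. Averaged over treatments, polar and mural levels differed by a log2 of 0.04 (SE 0.31, edgeR adjusted p = 0.94), a value that was 0 or changed sign in 14 of 38 alternatives, each leaving out 1 library. Within treatments polar minus mural was -1.46 in WT (SE 0.63, edgeR adjusted p = 0.138), 0.24 in diapause (SE 0.39, edgeR adjusted p = 0.749) and 1.33 in mTORi (SE 0.49, edgeR adjusted p = 0.119). Ordered by mean, the groups were polar mTORi (3204 ± 1089 CPM, SD, n = 3), mural WT (2395 ± 1019, n = 2), polar diapaused (2168 ± 366, n = 3), mural diapaused (1841 ± 238, n = 3), mural mTORi (1252 ± 367, n = 3) and polar WT (774 ± 361, n = 2). Each group overlapped the next in this order.

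miR-152-3p, the member encoded in Copz2, had 105 of its 112 counts in polar pieces, nearly all of them from paused blastocysts. Polar WT libraries had 0 and 1 counts; the 0 allows up to 0.172% of that library's counts, and the other library stood at 206 CPM. Polar diapaused libraries had 24, 33 and 36 counts (1599, 3341 and 3401 CPM), and polar mTORi libraries had 2, 2 and 7 (715, 846 and 2494 CPM). The highest mTORi value was that of replicate 3, the library with the epithelial counts. In mural pieces there were 1 and 1 counts in WT (156 and 120 CPM), 1, 2 and 2 in diapause (100, 123 and 168 CPM) and 0 in all 3 mTORi libraries, which allows up to 0.0261% of their 11489 counts or 276 CPM. The CPM of polar diapaused and polar mTORi libraries overlapped each other and lay above those of the other libraries. Separation from polar WT is not shown at this depth, since the 0.172% that the 0 allows is above the shares of polar mTORi replicates 1 and 2 (0.0653% and 0.0916%) and of polar diapaused replicate 1 (0.166%). In single mural mTORi libraries a 0 allows 0.0684% to 0.086%, which is also above polar mTORi replicate 1.

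Within diapause, miR-152-3p was higher in polar than in mural pieces by a log2 of 4.23 (SE 0.67, edgeR adjusted p = 0.000674). There were 93 counts against 5, a depth-scaled ratio of 20.0 (exact 95% interval 8.28 to 63.1). The exact intervals of ratios pool the libraries of each group and cover counting error only, not the spread between libraries. The difference held in all 17 alternatives that gave a value. With the filter recomputed, 4 of 6 fits gave a value, and miR-152-3p was filtered out of the others. Because it passed the filter through groups in which it is high, this is a description. Against polar WT, polar diapause had 93 counts against 1, a ratio of 17.8 (3.11 to 710.0), called at an edgeR adjusted p of 0.0238. That call was lost in 7 of 14 alternatives, and the edgeR adjusted p was 0.139 without polar WT replicate 2, the library that held the single WT count. It was 0.0737 without polar WT replicate 1, 0.0683 without polar diapaused replicate 2 and 0.069 without polar diapaused replicate 3. Polar mTORi had 11 counts against 1, a ratio of 9.37 (1.36 to 403.0), which was not called (edgeR adjusted p = 0.0687). Compared with mural mTORi, polar mTORi had 11 counts against 0, 7 of the 11 from replicate 3. The ratio was 5.0 with 3 counts over the mural mTORi group as the floor, and its exact 95% lower limit was 3.43. The difference was called (edgeR adjusted p = 0.0447), and this call was lost without polar mTORi replicate 3 (edgeR adjusted p = 0.105). It was also lost without any 1 of the mural mTORi libraries (edgeR adjusted p 0.0868 to 0.136). Averaged over treatments, miR-152-3p was also called higher in polar pieces (edgeR adjusted p = 0.0183), an average over groups with as few as 0 and 1 counts. That call held in 33 of the 36 alternatives that gave a value. It was lost without polar WT replicate 2, which leaves polar WT at 0 (edgeR adjusted p = 1, also with the filter recomputed), and without a filter (0.0557). Between the paused polar groups the difference was 1.00 on the log2 scale (SE 0.62, edgeR adjusted p = 0.326). In mural pieces diapause and WT had 5 counts against 2, a ratio of 0.967 (0.158 to 10.2), too few to show a difference at this depth.

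Beside the counts of miR-152-3p in polar pieces, the inner cell mass list had 14 counts in WT (of 6684), 15 in diapause (of 33059) and 2 in mTORi (of 8746). The trophectoderm list had 48, 343 and 102 counts in the same groups, and its share of polar counts stayed below that of every mural library. As this list was chosen from earlier results of these data, that lower share is a description and no separate evidence. Whether the mix of cells in the polar piece bears on miR-152-3p was not tested.

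Set beside each other, 2 of 3 members were called higher in polar diapause and 2 of 3 in polar mTORi, against 5.88% and 12.7% of tested miRNAs, and the median log2 difference of the family was 1.33 and 1.90 against 0.10 and 0.18 over all tested miRNAs. In mural pieces 1 of 3 was called higher in each, with a family median of -0.05 against 0.19 in diapause and -0.89 against -0.06 in mTORi. No member was called lower in any of the 14 comparisons. The share of tested miRNAs called lower was 1.96%, 1.96%, 9.8% and 5.88% in polar diapause, mural diapause, polar mTORi and mural mTORi. For polar against mural it was 6.86%, 13.7% and 1.96% in WT, diapause and mTORi, and for the averages 3.92% (diapause), 16.7% (mTORi) and 14.7% (polar against mural). For diapaused against mTORi it was 7.84% in polar pieces. In mural pieces, and for both differences between parts, it was 0%, so no tested miRNA was called lower there. These counts and medians cover 3 miRNAs and are a description only. Each family median is the value of a single member, miR-152-3p in mural diapause (-0.05) and miR-148b-3p in the other 3 comparisons with WT. It does not follow the family's total, whose share of all counts was lowest in WT in both parts. miR-152-3p, 1 of the 2 calls in polar diapause, passed the filter through groups where it is high, and in mural pieces its fitted values rest on 2 counts in WT, 5 in diapause and 0 in mTORi. As given above, the polar calls were lost in 13 of 16 (miR-148a-3p) and 7 of 14 alternatives (miR-152-3p) in diapause and in 4 of 16 (miR-148a-3p) and 10 of 16 (miR-148b-3p) in mTORi.

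Because the 3 members share a seed, their proportions within the family were compared, which no scaling between libraries can alter. Mural WT had the most even mix: miR-148b-3p made up 35.1% of the family in replicate 1 (20 of 57 counts, exact 95% interval 22.9% to 48.9%) and 22.2% in replicate 2 (14 of 63, 12.7% to 34.5%). In the other 14 libraries it held 3.23% to 10%, below both mural WT intervals. Their own intervals reached up to 16.8% (polar mTORi replicate 1), below the interval of mural WT replicate 1. Some of them overlapped the interval of mural WT replicate 2, so separation from that library is not shown. miR-148a-3p correspondingly held 63.2% and 76.2% in mural WT and 83.1% to 96.8% in the other 14 libraries. miR-152-3p took 5.22%, 10.7% and 9.68% of the family in polar diapause and 1.67%, 2.44% and 7.14% in polar mTORi. It took 0% and 1.39% in polar WT and at most 1.75% in any mural library. The family in paused mural pieces was thus nearly all miR-148a-3p, at 89.4% to 91.8% in diapause and 93.1% to 96.6% in mTORi. miR-152-3p took a larger share in polar than in mural diapause, where the exact 95% intervals reached at most 3.29%. The polar WT intervals reached 11.2% and 7.5%, so a gain over polar WT is not shown at these counts. Polar mTORi replicate 1, at 1.67%, lay below mural WT replicate 1, at 1.75%. Intervals cover counting error only, and a different assignment of reads with mismatches would move these proportions.

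**Figure D3:**
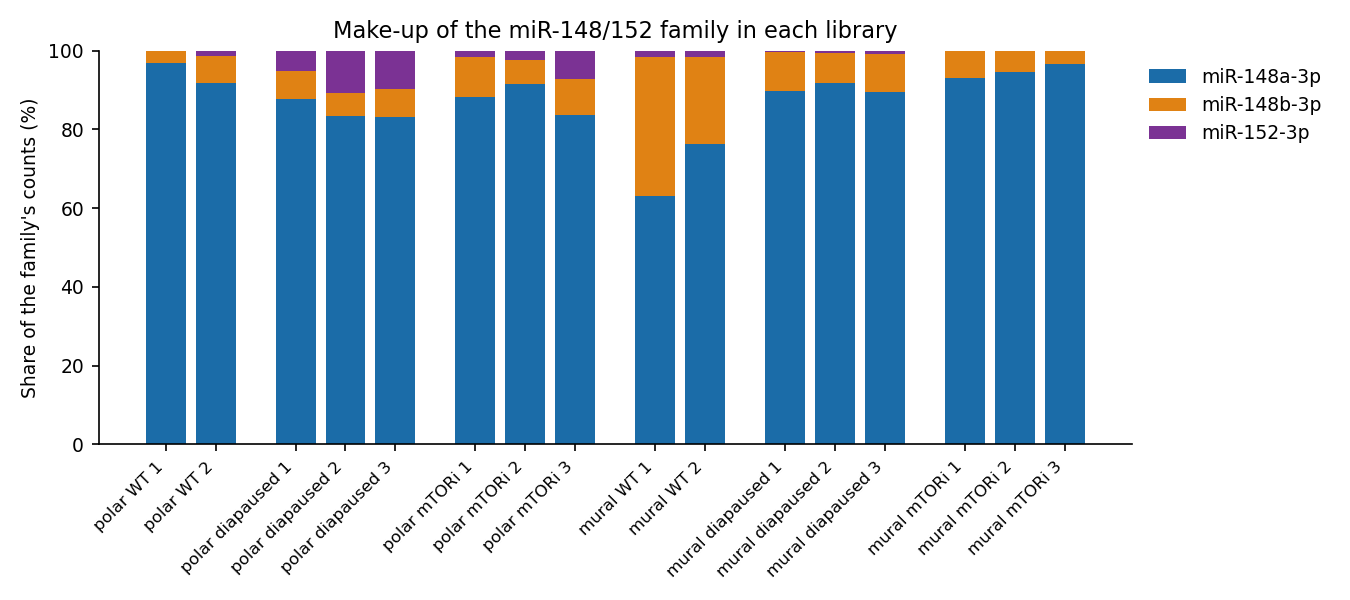
Make-up of the family in each of the 16 libraries, as the percentage of the family's counts (vertical axis) held by each member (stacked colours), with group and replicate on the horizontal axis. miR-148b-3p takes 35.1% and 22.2% in mural WT against 3.23% to 10% elsewhere. miR-152-3p is most visible in the polar diapaused libraries and in polar mTORi replicate 3.

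Reads of the opposite strand were rare. miR-148a-5p had 12 counts in polar pieces, from 5 of 8 libraries, which was 0.896% of the reads of both strands (exact 95% interval 0.464% to 1.56%). It had 0 counts in mural pieces beside 1044 of the 3p strand, which allows up to 0.287%. miR-148b-5p had 3 counts in polar and 1 in mural pieces, and miR-152-5p had 0 beside 112 of its 3p strand, which allows up to 2.68%. Nearly all reads of each hairpin in these libraries were thus counted on its 3p strand.

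Among all tested miRNAs, those most like each member in their 6 group means of log2 CPM were listed as a description; the points share libraries and scaling. For miR-148a-3p these were miR-26b-5p (Pearson r 0.95 over 6 groups, 0.83 over 16 libraries), miR-25-3p (0.91 and 0.81), miR-23a-3p (0.82 and 0.68), let-7b-5p (0.80 and 0.49) and let-7g-5p (0.75 and 0.64). By group mean miR-26b-5p was at 5926 CPM in mural WT, 12566 in mural diapaused and 17070 in mural mTORi pieces, and at 9156, 14441 and 24653 CPM in the polar groups. For miR-152-3p the nearest was miR-192-5p (0.94 over groups, 0.62 over libraries), and for miR-148b-3p it was miR-21a-5p (0.87 and 0.51). Among the members, r was 0.14 over the 6 group means and 0.18 over libraries for miR-148a-3p with miR-148b-3p, 0.53 and 0.47 for miR-148a-3p with miR-152-3p, and 0.60 and 0.55 for miR-148b-3p with miR-152-3p. The other miRNAs were picked for high r over the group means, so the 2 sets of values are not compared.

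Other miRNAs known to bind DNA methyltransferase transcripts were read from a list of 8, of which 2, miR-101a-3p and miR-29a-3p, passed the filter, and miR-29b-3p and miR-29c-3p had no count. As miR-29a-3p passed the filter through the mTORi libraries, where it is high, these counts are a description. In diapause 0 of 2 were called against WT in either part by edgeR, at unadjusted p of 0.0733 and 0.828 in polar and 0.0276 and 0.117 in mural pieces for miR-101a-3p and miR-29a-3p. In mTORi 1 of 2 was called higher in each part, miR-29a-3p, with 46 counts against 2 in polar WT and 33 against 4 in mural WT (edgeR adjusted p = 0.0187 and 0.0282), where 12.7% and 5.88% of tested miRNAs were called higher. Averaged over parts, miR-101a-3p was also called higher in mTORi (log2 1.06, SE 0.34, edgeR adjusted p = 0.027). In the polar piece both were called lower in diapause than in mTORi, by -1.66 for miR-101a-3p (SE 0.42, edgeR adjusted p = 0.0127) and with 8 counts against 46 for miR-29a-3p (edgeR adjusted p = 0.00333), in a comparison where 7.84% of tested miRNAs were called lower.

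**Figure D4:**
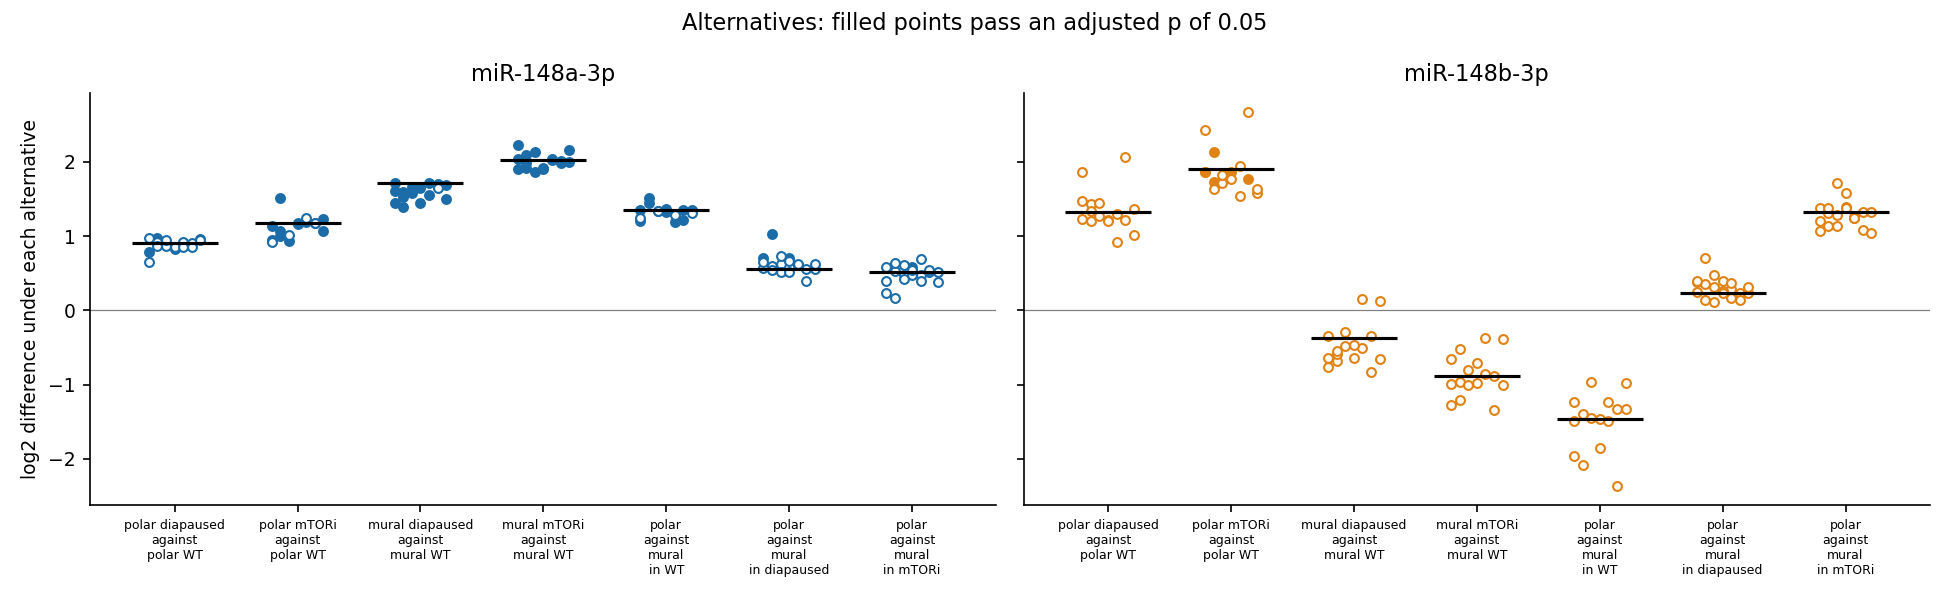
edgeR log2 difference of miR-148a-3p and miR-148b-3p (vertical axis) in each comparison with WT and between parts (horizontal axis), with the reported value as a black line and each alternative setting as a point, filled where the adjusted p was under 0.05. miR-148a-3p stays above 0 throughout, and miR-148b-3p in mural diapause spans -0.83 to 0.15.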

How the data were processed

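Per the labels' protocols, adapters with molecular identifiers were ligated to small RNA of laser-cut pieces, 12 to 20 PCR cycles were run without size selection, and 75 nt reads were sequenced. The authors deposited raw counts per mature miRNA name for each library. Per the submitters' processing notes the build was GRCm38. Not given in the sources used here are the aligner, counter, annotation version and any collapse of identifiers, so intervals and floors cover counting error only.

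The deposited counts were tested in R 4.3.3 with edgeR 4.0.16. filterByExpr (minimum count 10, minimum total 15) kept 102 of 1978 names, holding 92.83% to 97.61% of each library's counts. TMM factors were used, with a mean for each of the 6 groups fitted over all 16 libraries (10 residual degrees of freedom). In 14 contrasts the two-sided quasi-likelihood test was adjusted by Benjamini-Hochberg over the 102 miRNAs and called under 0.05. The SE given with an edgeR log2 difference is its absolute value over the square root of the test's F statistic. It was thus derived from the test and not estimated separately. The log2 CPM values used for correlations had a prior count of 2, and the test fits kept the default of edgeR. A group without counts was given a floor of 3 counts over the group, and ratios with 1 to 3 counts have exact 95% intervals. Replicates differed by more than sampling noise (chi-square per degree of freedom 1.995 to 21.67). Statements that the libraries of a group all lie above or below those of another are descriptions. The share of all tested miRNAs that separate likewise is not given. The procedure was tested on simulated data.

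Alternatives were DESeq2 1.42.0, its size factors (RLE) with edgeR, library size alone, no filter, fits of only the groups compared, replicate blocks (by number, and by number within a treatment) and each library left out. For likeness between miRNAs they were a prior count of 0.5 and correlation over libraries, and for shares a total without the miR-290/miR-295 cluster. Leaving a library out with the filter recomputed was chosen after seeing the data. Members and lists were chosen with earlier results of these data known. Named miRNAs were the members, their 5p arms, names with the same seed, the 5 tested miRNAs most correlated with each member over group means, and up to 4 of each list. Sequences are from RefSeq (GRCm38.p6), which matched 1679 of the 1978 names, and host genes from the GRCm38 annotation.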

Additional observations from a re-analysis of the deposited data

Results flagged for a closer look

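For miR-148b-3p the effect of mTOR inhibition pointed in opposite directions in the 2 parts of the blastocyst. All 3 polar mTORi libraries lay above both polar WT libraries (2115 to 4292 CPM against 519 and 1029), and all 3 mural mTORi libraries lay below both mural WT libraries (986 to 1671 CPM against 1674 and 3116). The mural gap was narrow, from 1671 to 1674 CPM. The share of all tested miRNAs that separate likewise is not given here, so these orders are a description. The difference between the effects was 2.79 on the log2 scale (SE 0.80, edgeR adjusted p = 0.137), so it did not pass the adjustment over all tested miRNAs. It stayed between 2.26 and 3.61 in 26 alternatives, with edgeR adjusted p from 0.0809 to 0.595. The counts behind it were 26 against 6 in polar and 14 against 34 in mural pieces.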

How the results depend on the processing

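For miR-148a-3p the mural mTORi difference, the averages over parts and the average between parts were called in every alternative run. miR-152-3p between parts in diapause was called in every alternative that gave a value. This is a description, because it passed the filter through groups in which it is high and was filtered out of some fits. Without a filter on low counts, miR-148a-3p was at 0.87 in polar diapause, 1.01 in polar mTORi and 1.34 between parts in WT, miR-148b-3p was at 1.72 in polar mTORi and the adjusted p of miR-152-3p in polar diapause was 0.122, none of them called. With only the groups compared, the same 3 values of miR-148a-3p were 0.92, 1.25 and 1.29, miR-148b-3p in polar mTORi was at 1.94 and the adjusted p of miR-152-3p between parts in mTORi was 0.274, none called. miR-148a-3p between parts in diapause was called with RLE (0.70), DESeq2 (0.70), library size alone (1.03) and only the groups compared (0.61), and in mTORi with DESeq2 (0.58). RLE moved the median of all tested miRNAs by -0.24 in mural diapause.

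Leaving out 1 library gave, for miR-148a-3p, 0.65 to 0.96 in polar diapause, 0.92 to 1.23 in polar mTORi, 1.53 to 1.72 in mural diapause and 1.21 to 1.52 between parts in WT. With the filter recomputed these were 0.85 to 0.98, 0.95 to 1.51, 1.5 to 1.71 and 1.19 to 1.31. For miR-148b-3p the ranges were 1.58 to 2.43 in polar mTORi (1.54 to 2.67 recomputed), -0.76 to 0.13 in mural diapause (-0.83 to 0.15) and -0.12 to 0.21 between parts on average (-0.32 to 0.21). The adjusted p of miR-152-3p was 0.0363 to 0.139 in polar diapause (0.0363 to 0.196) and 0.0196 to 0.136 between parts in mTORi (0.0198 to 0.155). With the filter recomputed, miR-148a-3p lost its polar diapause call in 5 of 5 fits, among them 0.86 without polar WT replicate 1. It lost its call between parts in WT in 2 of 4. Its polar mTORi call was lost in 1 of 5 fits, at 1.17 (without polar WT replicate 2). Its mural diapause call was lost in 1 of 5, at 1.65 (without mural WT replicate 2). The polar mTORi call of miR-148b-3p was lost in 3 of 5 fits, among them 1.63 (without replicate 1). The call of miR-152-3p between parts in mTORi was lost in 4 of 6 fits. Among these were the fits without polar or mural mTORi replicate 3, at edgeR adjusted p of 0.117 and 0.121. Its polar diapause call was lost in 2 of the 3 fits that gave a value. The average of miR-148b-3p between parts was -0.08, -0.05 and 0 without polar mTORi replicate 1, polar mTORi replicate 2 and mural mTORi replicate 3. In 2 of the 5 recomputed fits of polar diapause miR-152-3p was filtered out and gave no value. These fits also gave none for it between parts in diapause, between the paused polar groups or for the average between parts. The cause of these changes was not tested.

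Polar and mural libraries share replicate numbers, but the labels do not tie them to the same embryos. Deviations from the group mean correlated at 0.307 in WT, 0.11, -0.011 and 0.364 in diapause and 0.159, 0.112 and 0.183 in mTORi for same-numbered libraries, so the numbers were not taken as pairs. Every library correlated best with its own number in mTORi but not in diapause. With a replicate block miR-148a-3p in polar diapause was at 0.91 (edgeR adjusted p = 0.0739) and was not called, and no other call changed among the family's results to which it was applied. Of miR-152-3p, the mural comparisons with WT and between paused states, and polar against mural in WT, were not followed under the alternatives. Nor were its other averages and its differences between parts. Polar mTORi against polar WT was followed under 16 alternatives and stayed not called. Depth limits the values from WT, where polar pieces held 6684 counts in all, 6 of miR-148b-3p and 1 of miR-152-3p.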
